A study of Homo sapiens with 6 samples.

Results

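Late in mitosis, the overlapping microtubules between the separating chromosomes are bundled into the central spindle. A ring of actin and myosin then pinches the cell in at that place, before the final cut (abscission). The 8 genes described here encode proteins of these steps or of the earlier mitotic spindle. PRC1 crosslinks the antiparallel microtubules of the central spindle, RACGAP1 is a subunit of the centralspindlin complex that binds there, and ECT2 is the exchange factor that switches on RhoA beneath the membrane. ANLN (anillin) is a scaffold of the contractile ring, CIT (citron kinase) acts in the ring and in the midbody, and CEP55 recruits the abscission machinery to the midbody. TPX2 and ASPM act earlier, in the assembly and the poles of the mitotic spindle.

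All 8 genes were found once each by symbol among the 63236 genes of the authors' deposited table. They were chosen by name around PRC1, which had been selected on its difference between the groups in the authors' own comparison. The values of that comparison were not used here, so no change of any of these genes between the groups is given. The table comes from FUJIOKA cells, an acute myeloid leukaemia cell line, of which 3 libraries carried the control hairpin (shNEG) and 3 the hairpin against SPINK2 (shSPINK2), a protease inhibitor gene. Both hairpins are stably integrated, selected with puromycin and expressed from a promoter that doxycycline switches on, so the control cells carry a vector and receive doxycycline as well. The sample labels describe 2 SPINK2 hairpins, shRNA1 and shRNA2, and the methods name only shRNA1. Which of them a library carries is not given in the sources used here.

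The measurement available for each gene is 1 number, the authors' mean over all 6 libraries of the gene's read count divided by the library's size factor (the mean normalized count). It mixes shNEG and shSPINK2 libraries in equal numbers and carries no spread between replicates, so levels are described below and none is tested. These means add up to 38425214 normalized counts. Of all genes 31016 had a mean of 0 and 32220 a mean above 0. The size factors, read from the values that genes with a single read share, lay between 0.985 and 1.03, so the 6 libraries had similar depths. PTPRC, CD33 and SPI1, which mark white blood cells and the myeloid lineage, had mean normalized counts of 9179, 7777 and 10672, and the myeloid granule gene MPO 1844. The T cell gene CD3E stood at 0.500 and the epithelial gene EPCAM at 0.

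The upstream sequences of these genes were looked at first, since genes of mitosis often share promoter words of 2 kinds. The first is CCAAT, which the factor NF-Y binds, and the second is the cell cycle genes homology region (CHR), through which complexes with the MuvB core bind many genes that peak in mitosis. Windows from 250 bases before to 50 after the annotated start were taken from RefSeq (GRCh38.p14), which gave 7 windows for 6 of the genes, 2 of them for ECT2. RACGAP1 and TPX2 have no window in that table. The words searched on both strands were CCAAT, which reads ATTGG on the other strand, and for CHR the word TTTGAA, which reads TTCAAA on the other strand, together with the word TTCGAA, which reads the same on both. No CHR word overlapped a CCAAT word in these windows.

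The stretch from 120 bases before to 30 after the start is shown for these 6 genes, for ECT2 at its upstream start. It is written 5′ to 3′ along the gene's own strand with CCAAT and CHR words in capitals, so that the place of the words can be compared.
PRC1, chr15:90994506-90994655, minus strand: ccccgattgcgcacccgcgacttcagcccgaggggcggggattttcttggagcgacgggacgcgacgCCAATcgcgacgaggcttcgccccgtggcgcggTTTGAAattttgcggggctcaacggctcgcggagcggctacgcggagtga
ANLN, chr7:36389742-36389891, plus strand: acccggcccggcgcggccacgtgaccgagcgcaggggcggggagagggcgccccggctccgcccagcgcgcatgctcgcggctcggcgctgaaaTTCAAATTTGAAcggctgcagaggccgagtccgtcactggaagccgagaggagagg
ECT2, start 1, chr3:172750606-172750755, plus strand: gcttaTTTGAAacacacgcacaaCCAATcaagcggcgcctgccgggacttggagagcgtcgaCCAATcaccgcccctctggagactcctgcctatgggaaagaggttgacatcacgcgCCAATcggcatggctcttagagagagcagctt
CIT, chr12:119877291-119877440, minus strand: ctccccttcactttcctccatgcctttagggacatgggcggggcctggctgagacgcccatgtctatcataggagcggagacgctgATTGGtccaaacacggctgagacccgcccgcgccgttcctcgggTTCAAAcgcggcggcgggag
CEP55, chr10:93496492-93496641, plus strand: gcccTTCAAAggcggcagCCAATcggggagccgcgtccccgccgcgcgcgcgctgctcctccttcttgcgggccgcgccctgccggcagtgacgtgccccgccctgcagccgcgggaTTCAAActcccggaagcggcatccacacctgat
ASPM, chr1:197146640-197146789, minus strand: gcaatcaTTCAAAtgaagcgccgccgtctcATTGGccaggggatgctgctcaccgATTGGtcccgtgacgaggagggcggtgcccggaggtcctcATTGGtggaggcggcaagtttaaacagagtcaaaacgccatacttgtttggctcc

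All 6 genes with a window held at least 1 CHR word, whereas 16.4% of the 35116 RefSeq promoter windows of the same length did. CCAAT was present in 5 of the 6, in PRC1, ECT2, CIT, CEP55 and ASPM, against 34.6% of all windows. The same 5 genes held both words, against 6.38% of all windows. ANLN was the gene without CCAAT. A gene was counted if any of its windows held the word, whereas the shares are per window. The second window of ECT2 held CHR words but no CCAAT. These counts describe sequence, and binding at the words was not measured.

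The words lay at different distances from the start. In PRC1 a CCAAT word began at position -53 and a CHR word (TTTGAA) at -20, counted from the annotated RefSeq start. The stretch shown for PRC1 lies within the GENCODE gene, which on this minus strand begins farther upstream, at 90995629. ANLN also had TTTGAA at -20, directly preceded by TTCAAA at -26, which is the same word on the other strand. In CEP55 a CHR word spanned the start, beginning at -3, and another lay at -116 beside a CCAAT word at -102. ASPM had 4 CCAAT words, at -134, -90, -65 and -25, all as ATTGG, with a CHR word at -113. CIT had 3, at -213, -127 and -34, and its CHR words began at -208 and, after the start, at 11. At its upstream start ECT2 had CCAAT words at -97, -58 and -2 and CHR words at -115 and 35. The window of its second start overlaps that one and held TTTGAA at -242 and -182 and no CCAAT. The word at -242 of the second start is the same site as that at 35 of the upstream start. For ANLN, ECT2 and ASPM too, the GENCODE gene begins upstream of the RefSeq start, at 36389821, 172750682 and 197146694, inside the stretch shown. The ANLN words at -26 and -20, the ECT2 CCAAT word at -2 and the ASPM word at -25 therefore lie within the GENCODE gene.

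**Figure D1:**
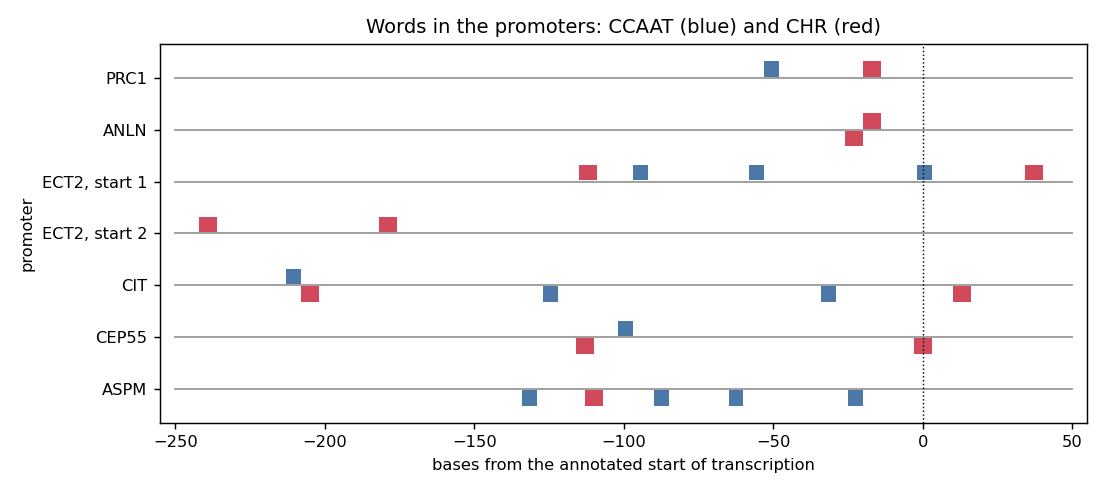
Places of CCAAT words (blue) and CHR words (red) in 7 promoter windows of 6 genes, with bases from the annotated start on the x axis (dotted line at the start) and 1 promoter per row. Marks above a line are words on the gene's strand and marks below it words on the other strand. Every row holds a red mark, and ANLN and the second start of ECT2 hold no blue one.

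In the pooled libraries all 8 genes were expressed, and their order was set per kb of the canonical GENCODE transcript, because a longer transcript gives more reads at the same number of molecules. TPX2, which activates the kinase AURKA and promotes microtubule growth around chromosomes, stood highest with 2395 mean normalized counts per kb. RACGAP1 followed with 1586 and PRC1 with 1040.2, and CEP55 had 887. The lower 4 were ECT2 with 501, ASPM with 405, CIT with 338 and ANLN with 289 mean normalized counts per kb. TPX2 was thus 8.29 times ANLN on this scale.

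Neighbours in this order were closer. PRC1 was 1.17 times CEP55, ECT2 1.24 times ASPM, ASPM 1.20 times CIT and CIT 1.17 times ANLN, all per kb. Wider steps separated TPX2 from RACGAP1 (1.51 times), RACGAP1 from PRC1 (1.52 times) and CEP55 from ECT2 (1.77 times). Over the 6 libraries together, the counting error of a member's level (the distance from the level to an end of its exact Poisson 95% interval, averaged over both ends) was between 0.878% and 2.17%, which is smaller than each of these steps. The interval covers counting error only, and with 1 pooled value per gene the steps cannot be set against the spread between libraries. With the coding sequence in place of the whole transcript as the length, CIT and ASPM changed places, at 476 and 421 per kb of coding sequence, and PRC1 and CEP55 were nearly level at 1718 and 1694. With the union of all annotated exons as the length, a choice added after seeing the data, PRC1 (579 per kb) stood below CEP55 (717) and CIT (103) below ANLN (228), so CIT was then the lowest. The canonical transcript of CIT has 8736 bases and the union of its exons 28605. TPX2 and RACGAP1 stood highest and next under each of the 3 lengths.

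Without division by length the order was different. The mean normalized count was 8319 for TPX2, 4927 for RACGAP1, 4395 for ASPM, 3196 for PRC1, 2953 for CIT, 2358 for CEP55, 2073 for ECT2 and 1367 for ANLN. ASPM and CIT moved up because their canonical transcripts have 10863 and 8736 bases, whereas that of CEP55 has 2658. Together the 8 genes took 0.0770% of all normalized counts.

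**Figure D2:**
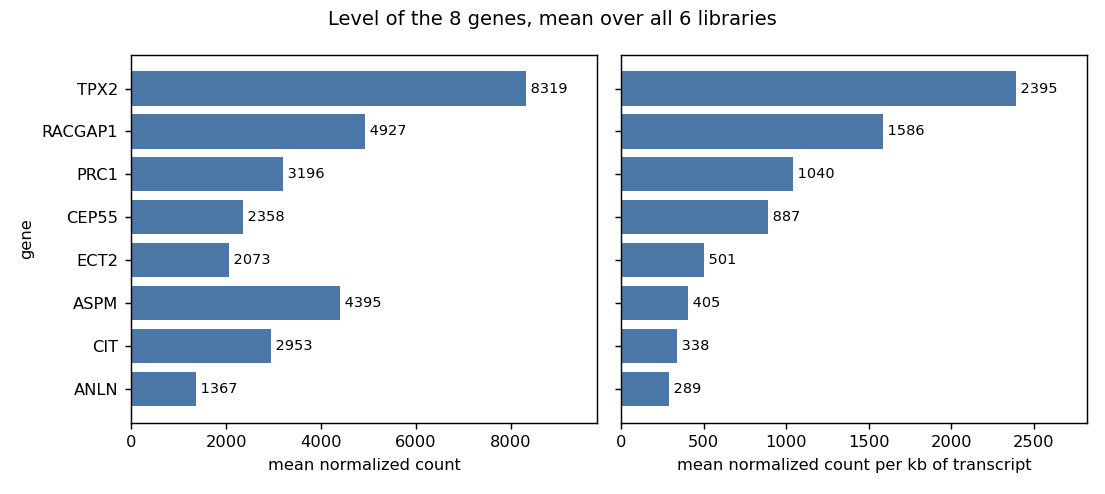
Level of each of the 8 genes as the authors' mean over all 6 libraries, as the mean normalized count (left) and divided by the length of the canonical transcript (right, per kb). Bars start at 0 and carry no error bar because the table gives 1 pooled value per gene. TPX2 leads on both scales with 8319 and 2395, and ASPM stands high on the left with 4395 and low on the right with 405.

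Among the 31833 genes with a mean above 0 that GENCODE release 44 names, the share with a lower level per kb ran from 77.5% for ANLN to 95.9% for TPX2, with PRC1 at 90.7%. Against the 12444 protein-coding genes whose mean was 10 or more, they stood nearer to the middle, from 45.1% for ANLN and 49.1% for CIT to 84.3% for RACGAP1 and 89.8% for TPX2. In that set 6 of the 8 lay above the median of 352 mean normalized counts per kb.

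**Figure D3:**
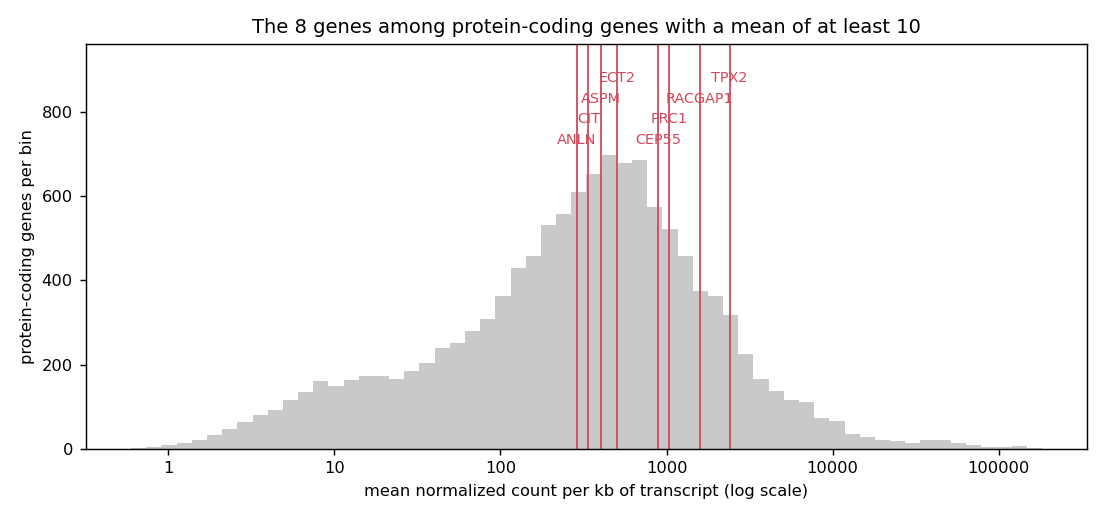
Number of protein-coding genes whose mean was 10 or more (grey bars, y axis) by mean normalized count per kb of transcript (x axis, log scale), with a red line for each of the 8 genes. CIT and ANLN, at 338 and 289, lie left of the median of 352, and TPX2, at 2395, lies farthest right.

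The same scale was applied to 28 further genes of spindle assembly and cytokinesis, a list written with earlier results of these data known. Their median was 1179 mean normalized counts per kb, against 694 for the 8 genes. Of the 28 genes 23 lay within the range of the 8, 4 above TPX2 (RHOA, MYH9, SEPTIN2 and TACC3) and 1 below ANLN (MYH10). Per kb of coding sequence 7 lay above TPX2 and 2 below ANLN, with TACC3 then below TPX2, and per kb of all annotated exons 2 lay above TPX2 (RHOA and CHMP4B) and 1, MYH10, below CIT, the lowest of the 8 on that scale.

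Partners of the same complex differed in level. KIF23, the kinesin that forms centralspindlin with RACGAP1, had 486 mean normalized counts per kb, so RACGAP1 stood 3.26 times higher. KIF4A, the kinesin that PRC1 brings to the central spindle, had 739, and PRC1 stood 1.41 times higher per kb of transcript and 1.96 times per kb of coding sequence, but at 0.816 of KIF4A per kb of all annotated exons. The other genes acting with PRC1 were KIF14 at 390, KIF20A at 1297 and the kinase PLK1 at 2335 per kb. AURKA, the kinase that TPX2 activates, had 1542 per kb, and TPX2 was 1.55 times that.

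The 4 genes of the chromosomal passenger complex, which carries the kinase AURKB to the central spindle, all stood above PRC1, from INCENP at 1233 over CDCA8 at 1657 and AURKB at 2046 to BIRC5 at 2287 mean normalized counts per kb. The contractile ring genes had the widest range. RHOA, the GTPase that ECT2 activates, reached 16956 per kb, and the myosin heavy chain MYH9 had 4333 while its paralog MYH10 had 172. The septin genes SEPTIN2, SEPTIN9 and SEPTIN7 stood at 3087, 1970 and 1105 per kb and the formin DIAPH3 at 493. RHOA, MYH9 and the septins also serve cells outside of division. Of the abscission genes, CHMP4B had 2345 per kb, PDCD6IP (ALIX) 1451, TSG101 974, VPS4A 481 and SPAST 332. PDCD6IP and TSG101 are bound by CEP55 at the midbody. PDCD6IP stood above CEP55 under all 3 lengths, whereas TSG101 stood above it per kb of transcript and below it per kb of coding sequence (1277 against 1694) and of all annotated exons (420 against 717). In spindle assembly TACC3 had 2645 per kb, HMMR 1125, CKAP5 1072, KIF11 958, NUMA1 601 and KIF15 324.

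**Figure D4:**
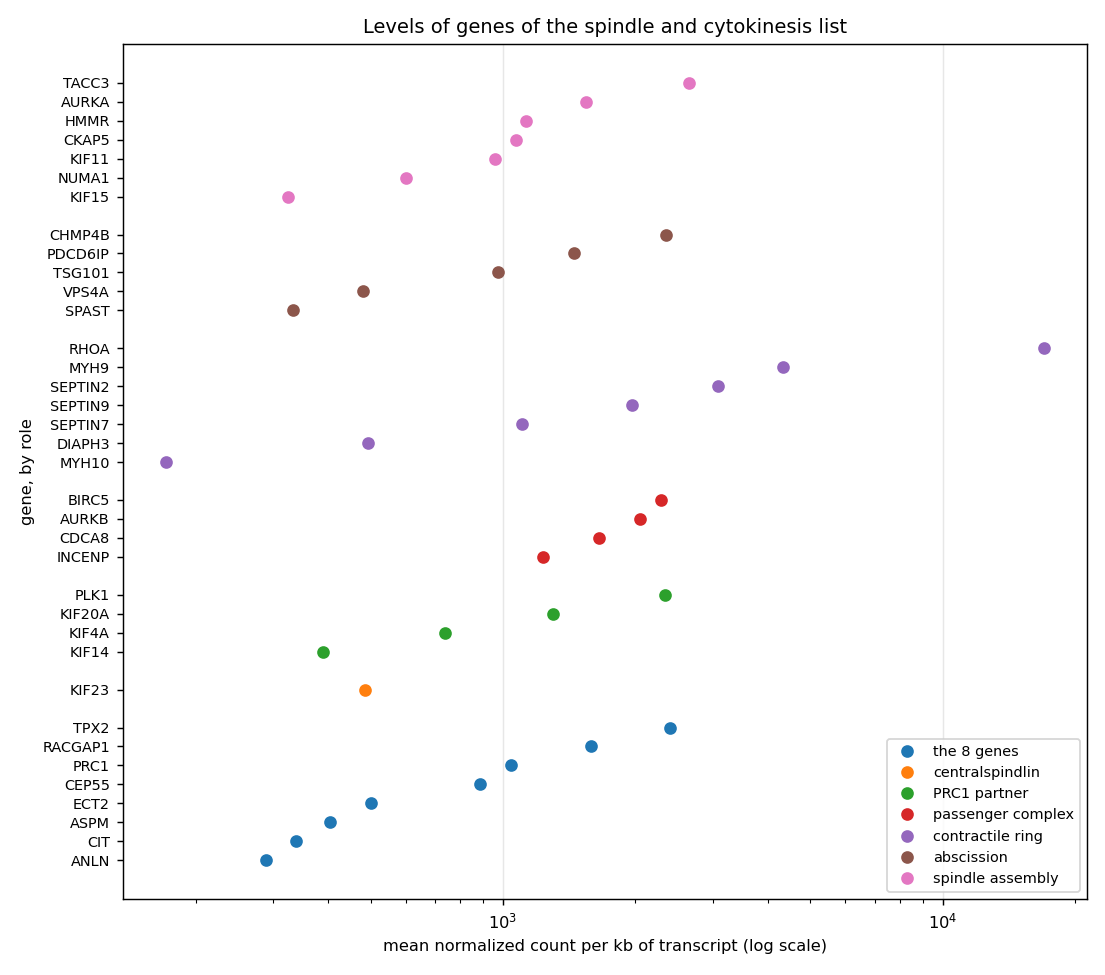
Mean normalized count per kb of transcript (x axis, log scale) of the 8 genes and of 28 further genes of the spindle and cytokinesis, 1 point per gene, coloured and grouped by role. Each point is the authors' mean over all 6 libraries. The 8 genes span 289 to 2395, and RHOA lies farthest right at 16956.

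The genes lie on 7 chromosomes (GRCh38, GENCODE release 44). PRC1 (ENSG00000198901.13 in the table) lies on chromosome 15 from 90966040 to 90995629 on the minus strand, with 15 exons in its canonical transcript. Chromosome 12 holds both RACGAP1, from 49976923 to 50033136 with 17 exons, and CIT, from 119685791 to 119877320 with 48, each on the minus strand. ASPM is on chromosome 1 from 197084121 to 197146694, also on the minus strand, with 28 exons. The other 4 are on the plus strand, ANLN on chromosome 7 from 36389821 to 36453791, ECT2 on chromosome 3 from 172750682 to 172821474, CEP55 on chromosome 10 from 93496612 to 93529092 and TPX2 on chromosome 20 from 31739271 to 31801805.

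Few reads were counted for genes that share ground with them. An antisense lncRNA, PRC1-AS1, overlaps an exon of PRC1 and had a mean of 7.64 normalized counts. MATCAP2 meets the first part of ANLN on the opposite strand with a mean of 29.1, and a lncRNA opposite an exon of CIT had 4.17. RACGAP1P, named as a pseudogene of RACGAP1, had 0.335. Whether the counting used strand is not stated, so reads of a gene and of an antisense partner cannot be told apart. How reads that overlap both genes were counted is not stated either. The low means of the partners therefore do not show whether PRC1, ANLN or CIT lost reads at the shared exons. A second protein-coding annotation of release 44 shares exons with PRC1 and is not in the table.

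In transcript structure ASPM stood apart from the others, with a 3′ UTR of 197 bases after 10434 bases of coding sequence and stop codon. The 3′ UTRs of the other 7 ran from 720 bases in TPX2 to 2441 in CIT, and that of PRC1 had 1091. The hairpin target sequences named in the labels were compared with these canonical transcripts, since a guide can also pair through its seed. Each target is written with capitals for the 7 bases that pair with guide positions 2 to 8.
shRNA1 target: tcagggaaggtggTCATAATa
shRNA2 target: cgccaaactgctcTCAGTATa

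Both targets matched SPINK2 over all 21 bases, in the coding sequence. The longest run shared with any of the 8 transcripts was 10 bases, between the shRNA2 target and the coding sequence of CEP55, and 5.46% of the 12444 transcripts of protein-coding genes whose mean was 10 or more shared a run of 10 or more with that target. PRC1 shared at most 9 bases with shRNA1 and 8 with shRNA2, which 21.8% and 51.9% of transcripts did or exceeded. The seed match of shRNA1 (TCATAAT) occurred in the 3′ UTR of ECT2 and of none of the other 7, and in 13.3% of all 3′ UTRs compared. That of shRNA2 (TCAGTAT) occurred in the 3′ UTR of ASPM and in none of the other 7, against 15.2%. Outside the 3′ UTR the seed match of shRNA2 occurred once each in the transcripts of PRC1, CIT and ASPM, and 22.8% of all transcripts compared held it anywhere. In PRC1 it lies in the coding sequence, within the run of 8 bases shared with the shRNA2 target. That of shRNA1 occurred outside the 3′ UTR in ASPM. Counted anywhere, the seed match of shRNA1 was in ECT2 and ASPM, against 17.45% of all transcripts compared. All these shares are over transcripts and 3′ UTRs of any length and were not matched to the lengths of the 8. A longer sequence has more places for a match, so the shares are not like for like. These matches are a description of sequence, and their part in the level of any gene was not tested.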

How the data were processed

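RNA of 3 shNEG and 3 shSPINK2 libraries was sequenced by the authors as paired reads, aligned to GRCh38 with STAR, counted per gene with featureCounts and normalized with DESeq2, and the submitters' processing notes name STAR 2.7.11 and DESeq2 1.40.0. The annotation release and strandedness of counting are not given in the sources used here. The value used is a signal deposited by the authors, the mean normalized count over all 6 libraries. The other 6 columns hold the authors' own comparison (fold change, its standard error, statistic, p-value, adjusted p-value and a call) and were not used. With no value per library, no test between groups was made.

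Genes were matched to GENCODE release 44 by Ensembl ID without version (98.8% of genes with a mean above 0), and means were divided by canonical transcript length. Named genes are the 8 members, SPINK2 and a list of 28 genes fixed by role, and further genes (blood and other markers, overlapping genes) were chosen with the data known. The members and the lists were chosen with earlier results of these data known. Promoter words were counted in RefSeq windows. The word search was tested on simulated data. Size factors came from the 6 values that 546 to 662 genes with 1 read each share. Alternatives were other lengths, gene sets and promoter windows. Python 3.11.15, pandas 2.3.3 and scipy 1.17.1 were used.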

Additional observations from a re-analysis of the deposited data

How the results depend on the processing

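The table holds 1 pooled value per gene, so no other normalization, low-count filter or tool was run and no replicate was left out. No paired analysis was possible because the columns carry no replicate. With coding length, the mean normalized count per kb became 3712 for TPX2, 2598 for RACGAP1, 1718 for PRC1, 1694 for CEP55, 756 for ECT2, 476 for CIT, 421 for ASPM and 405 for ANLN, and 6 of the 8 genes kept their place in the order. With the union of all annotated exons, chosen after seeing the data, the values were 2308 for TPX2, 1098 for RACGAP1, 717 for CEP55, 579 for PRC1, 377 for ECT2, 366 for ASPM, 228 for ANLN and 103 for CIT, and 4 kept their place. Without division by length 3 kept it. Of the 28 further genes, 4 lay above the 8 per kb of transcript, 7 per kb of coding sequence and 2 per kb of all exons. Ranked among protein-coding genes with a mean above 0, PRC1 stood above 82.1% and ANLN above 57.7%, and among all genes with a mean of at least 10 above 81.4% and 55.2%. In the promoter window from 100 bases before to 50 after the start, CHR words were in 7.37% of all windows and in 5 of 6 genes, and CCAAT in 21.3% and in 4 of 6. In that window CEP55 lost its CCAAT word and ASPM its CHR word, so only PRC1, ECT2 and CIT kept both. The share of all windows with both words was not computed for that window. The depth of the 8 genes limits little, and the missing spread between libraries limits every comparison of levels.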

Other observations

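The reads of the targeted gene, SPINK2, in the 6 libraries were recovered from its mean alone, as a set without library names. This was possible because a gene's mean is a sum of whole reads, each weighted by 1 over the size factor of its library. For its mean of 32.3 normalized counts exactly 1 set of 6 whole numbers was found, namely 6, 7, 9, 53, 56 and 63 reads, 194 in all. These values fall into 2 separate clusters of 3. The mean does not say which size factor belongs to which sample, so the libraries are not assigned to a group here and the clusters were not compared. In the same search on 20 made-up sets of reads of this size, the right set was the single answer in 20. The 8 genes of the report have too many reads for such a search and were not recovered.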
